A study of Mus musculus with 6 samples.

Results

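Thyrotropin-releasing hormone (TRH) is a small peptide hormone, and its signalling system was followed here through 4 genes of the mouse: Trh, which encodes the hormone's precursor, the receptor genes Trhr and Trhr2, and Trhde, which encodes the enzyme that degrades the hormone outside the cell. Every probe set of the array table whose platform gene symbol was one of these names was taken. Each gene had 1 probe set, so that the 4 members stand among 19938 genes with a symbol of their own. The members were chosen by the measured difference of Trh between the genotypes of this study, and the other 3 genes because their products act on the same hormone. The values of the 4 genes are therefore given as a description, without a test.

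The samples were mouse embryonic stem (ES) cells, female and of a mixed C57BL/129 background, derived and grown in 2i medium with LIF, which keeps them naive, the state closest to the early epiblast. The 3 lox/lox cultures were Scc1 lox/lox ERT2-Cre, in which Cre recombinase can excise both alleles of Scc1, and the 3 wt/wt cultures were Scc1 wt/wt ERT2-Cre. Scc1 is an older name of Rad21, a subunit of the cohesin ring. All 6 cultures carried the tamoxifen-activated Cre and had received 4-hydroxytamoxifen (4-OHT) for 24 h, at 80 nM by the sample labels (the design text gives the same figure in mM). Each culture's RNA was hybridised to 1 Affymetrix Mouse Gene 1.0 ST array. How many cell lines or clones stood behind each genotype is not given in the sources used here, and arrays without 4-OHT were not analysed here. Differences that the lines carried before treatment cannot be told apart from those that followed it.

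TRH is cut out of a larger precursor in the regulated secretory pathway. Convertases cleave at pairs of basic residues, carboxypeptidases trim those residues, glutaminyl cyclase closes the first residue into pyroglutamate, and an amidating enzyme finishes the other end. In the hypothalamus TRH drives the pituitary to release thyrotropin and prolactin through receptors coupled to Gq proteins, and thyroid hormone in turn represses the Trh gene. In rodents there are receptors of type 1 and type 2, and the membrane-bound pyroglutamyl peptidase II, the product of Trhde, cleaves the released peptide.

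The sequence before the annotated start of Trh is shown because this was the member whose level differed and because a thyroid hormone element lies in it. It covers the 250 bases upstream of the start at chr6:92244651-92244900 on the minus strand (RefSeq, GRCm38.p6), printed 5′ to 3′. Capitals mark TGACCTCA, known from the Trh promoter as Site 4, through which thyroid hormone receptors and CREB act, and the TATA-like CATATAA.
Trh upstream: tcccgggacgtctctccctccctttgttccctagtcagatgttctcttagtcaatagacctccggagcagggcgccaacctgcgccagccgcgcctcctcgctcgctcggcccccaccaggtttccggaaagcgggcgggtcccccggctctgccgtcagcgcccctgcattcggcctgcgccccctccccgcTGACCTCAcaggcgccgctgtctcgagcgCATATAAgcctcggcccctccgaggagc
TGACCTCA lay 57 to 50 bases before the start, and 1.94% of 32851 mouse promoter windows of this length held it on either strand. CATATAA lay 28 to 22 bases before the start, and 2.12% of windows held it. The nuclear receptor core AGGTCA was found once, on the opposite strand within TGACCTCA, and 14.0% of windows held it. The cAMP response element TGACGTCA and the STAT element TTCNNNGAA were not in this window, against 1.55% and 7.02% of all windows. CCCTC, after which the cohesin partner CTCF is named, occurred 3 times, each on the printed strand, and 60.5% of windows held it on either strand. Of the 4 members, 2 (Trh and Trhde) had a window in the table.

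Trh was 6.18-fold higher in lox/lox than in wt/wt cells. Its log2 intensities were 12.35, 12.18 and 12.08 in lox/lox replicates 1 to 3, against 9.97, 9.29 and 9.46 in wt/wt replicates 1 to 3. Every lox/lox array lay above every wt/wt array, and the lowest lox/lox value exceeded the highest wt/wt value by 2.11, more than the whole range within lox/lox (0.28) or within wt/wt (0.68). The means were 12.21 ± 0.14 in lox/lox against 9.58 ± 0.35 in wt/wt cells (log2 intensity, SD, n = 3 each), a difference of 2.63. With any 1 array left out the difference lay between 2.49 and 2.83. All 6 arrays stood above their own array's median, by 4.45 to 7.42 on the log2 scale. The wt/wt cells thus also had signal: the 4.45 was that of wt/wt replicate 2, and the 7.42 that of lox/lox replicate 1. In a bulk culture, more cells with the transcript and more transcript per cell cannot be told apart. Trh was the 1 member of 4 whose arrays did not overlap between genotypes, and 22.8% of all genes had such separation; since this contrast led to the choice of the gene, nothing is read from that count.

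The receptor genes gave weak signals that overlapped between the genotypes. Trhr, the type 1 receptor of the pituitary, had log2 intensities of 3.63, 3.53 and 3.52 in lox/lox cells, against 3.59, 3.73 and 3.53 in wt/wt cells. The highest value was that of wt/wt replicate 2 and the lowest that of lox/lox replicate 3, and the means of 3.56 ± 0.06 in lox/lox against 3.62 ± 0.10 in wt/wt cells differed by -0.05 (SD, n = 3 each). Without wt/wt replicate 2 this difference was 0.002, and without the pair of arrays that stood apart from their genotypes, lox/lox replicate 3 and wt/wt replicate 2, it was 0.02, so it had no settled direction. Trhr lies on chromosome 15 with 12 measured genes between it and Rad21, the gene that was deleted in lox/lox cells.

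Trhr2, the type 2 receptor gene of rodents, had log2 intensities of 4.64, 4.86 and 4.52 in lox/lox cells, against 4.65, 4.29 and 4.55 in wt/wt cells. The highest array was a lox/lox array and the lowest a wt/wt array, with the other 4 between 4.52 and 4.65. The means were 4.67 ± 0.17 in lox/lox against 4.50 ± 0.19 in wt/wt cells (SD, n = 3 each), a difference of 0.17 that was smaller than either SD. It lay between 0.07 and 0.25 when 1 array was left out.

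Trhde, the degrading enzyme, had log2 intensities of 3.28, 3.39 and 3.20 in lox/lox cells, against 3.46, 3.27 and 3.50 in wt/wt cells. Replicates 1 and 3 of wt/wt were the highest, and wt/wt replicate 2 fell within the lox/lox range. The means of 3.29 ± 0.10 in lox/lox against 3.41 ± 0.12 in wt/wt cells differed by -0.12 (SD, n = 3 each). Trhr, Trhr2 and Trhde lay below their array's median on all 6 arrays, by 1.12 to 1.40, 0.07 to 0.56 and 1.40 to 1.67 on the log2 scale. At such levels background makes up much of the signal, so a change of these transcripts would be understated or missed, and no detection call was used.

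**Figure D1:**
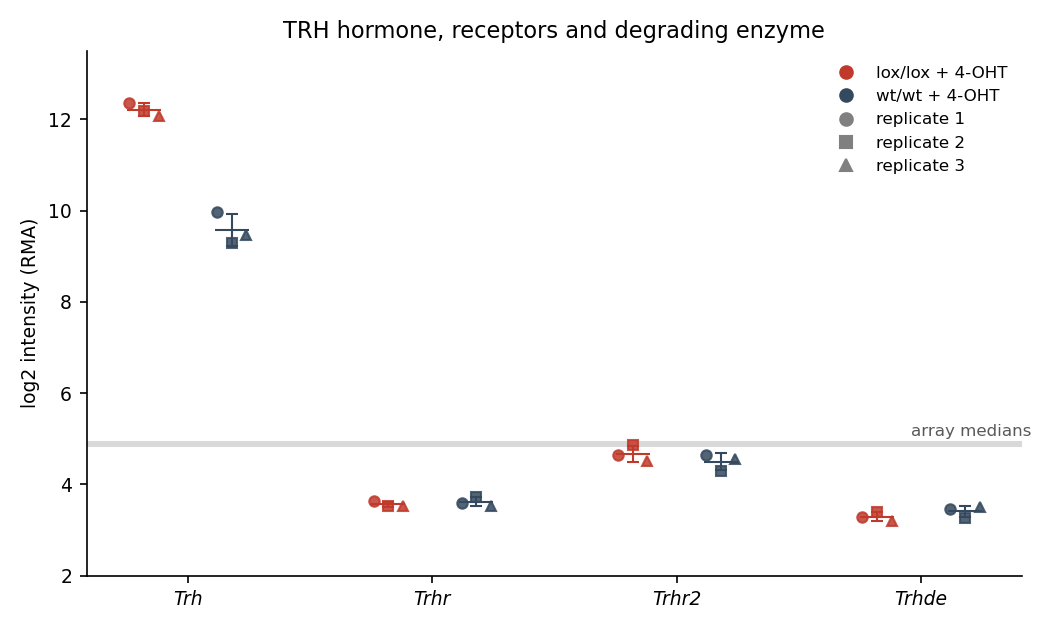
Log2 intensity (RMA) of Trh, Trhr, Trhr2 and Trhde on each array, with lox/lox arrays on the left of each gene and wt/wt arrays on the right; symbols show replicates, bars the mean ± SD of 3 arrays, and the grey band the range of array medians (4.85 to 4.94). Trh separated by genotype, from 12.08 upward in lox/lox and up to 9.97 in wt/wt cells, whereas the other genes overlapped between genotypes, below the band except for Trhr2 in lox/lox replicate 2, which lay within it at 4.86.

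The arrays carried the label of their genotype in the deleted gene: Rad21 had 6.09 ± 0.04 in lox/lox against 10.02 ± 0.03 in wt/wt cells (log2 intensity, SD, n = 3 each), with an adjusted p of 1.57e-09 in limma. All genes were fitted together, and a Benjamini-Hochberg adjusted p under 0.05 in limma made a call. Calls were made for 1228 of 19938 genes (6.16%), with 508 higher (2.55%) and 720 lower (3.61%) in lox/lox cells. An unadjusted p under 0.05 in limma was found for 3579 of the 19938 genes. Leaving out lox/lox replicate 2 gave 626 calls, leaving out wt/wt replicate 3 gave 661, leaving out wt/wt replicate 2 gave 806, and leaving out the pair that stood apart gave 697. All 8 ES cell markers lay above the array median on all 6 arrays, and they moved with the genotype: 3 fell (Sox2, Nanog and Esrrb, with log2 differences of -0.48, -0.55 and -0.34 and adjusted p of 0.0036, 0.00473 and 0.0309), 0 rose, and 5 did not pass, Pou5f1 among them. Leaving out any array but lox/lox replicate 3 ended the call of Esrrb (highest adjusted p = 0.138, without lox/lox replicate 2), as did a replicate block (adjusted p = 0.0639). With eBayes set to trend and robust, Pou5f1, Tfcp2l1 and Dppa5a also passed as lower (adjusted p = 0.025, 0.00625 and 0.0136 in limma). Tfcp2l1 also passed when dim genes were left out of the fit (adjusted p = 0.0339). The list, which was chosen with earlier results of these data known, had 37.5% called, beside 6.16% of all genes. The median log2 difference of the 8 markers was -0.23, with a difference below 0 in all 8. Their summed linear intensity was 21042 to 23034 in lox/lox cells, against 25027 to 26543 in wt/wt cells, and its part in the difference of Trh was not tested.

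In the list of genes for processing the TRH precursor, those that passed were lower in lox/lox cells. Not all of the listed enzymes are known to act on this precursor. Of 12 measured, 4 fell, 0 rose and 8 did not pass, and 33.3% were therefore called beside 6.16% of all genes. The list was chosen with earlier results of these data known, so nothing is read from how these shares compare. The median log2 difference of the list was -0.19, against -0.01 over all genes. The fallen genes were Pcsk6, Qpct, Cpd and Pcsk1, and the proprotein convertase gene Pcsk2 was not analysed here. Without lox/lox replicate 2, 2 members fell, and 2 did so when dim genes were left out of the fit.

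Qpct encodes glutaminyl cyclase, the enzyme that forms the pyroglutamate end of TRH. Its log2 intensities were 4.18, 4.15 and 4.17 in lox/lox cells, against 4.96, 4.67 and 5.03 in wt/wt cells. The lox/lox arrays were tightly grouped, all lay below every wt/wt array and below their array's median, and 2 wt/wt arrays lay above it. The log2 difference was -0.72 (SE 0.10, adjusted p = 0.00189 in limma), and the call was kept in each of the 6 fits without 1 array. Qpctl, which encodes the related Golgi enzyme and was named after its values were seen, had 6.41, 6.39 and 6.38 in lox/lox cells, against 6.20, 6.42 and 6.21 in wt/wt cells, and did not pass.

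Pcsk1 encodes the convertase PC1/3, which makes early cuts in many neuropeptide precursors. It had log2 intensities of 4.43, 4.38 and 4.16 in lox/lox cells, against 4.67, 4.77 and 4.84 in wt/wt cells, all below the array medians. The genotypes did not overlap, and the log2 difference was -0.43 (SE 0.09, adjusted p = 0.021 in limma). Leaving out lox/lox replicate 2 or 3, or wt/wt replicate 2 or 3, ended the call (highest adjusted p = 0.0969).

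Pcsk6, which encodes the convertase PACE4 of the constitutive secretory pathway, fell most within the list. Its log2 intensities were 7.68, 7.71 and 7.85 in lox/lox cells, against 8.38, 8.66 and 8.68 in wt/wt cells. The groups were clearly apart, with a log2 difference of -0.83 (SE 0.10, adjusted p = 8e-04 in limma), a 1.77-fold lower level in lox/lox cells that was called in all 6 fits without 1 array.

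Cpd encodes carboxypeptidase D, which removes basic residues from cleaved precursors in the trans-Golgi network. It had 5.71, 5.56 and 5.68 in lox/lox cells, against 6.07, 6.38 and 6.09 in wt/wt cells (log2 intensity). All lox/lox arrays were lower, and the log2 difference of -0.53 (SE 0.10, adjusted p = 0.011 in limma) lost its call without lox/lox replicate 2 (adjusted p = 0.063).

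Pam, named after its values were seen, encodes the enzyme that amidates TRH and other peptides. It had log2 intensities of 5.22, 5.37 and 5.58 in lox/lox cells, against 5.03, 5.03 and 5.02 in wt/wt cells. The lox/lox arrays lay above the wt/wt arrays, but the log2 difference of 0.36 (SE 0.10) did not pass (adjusted p = 0.053 in limma). Without lox/lox replicate 1 it did (log2 difference 0.45, adjusted p = 0.0301).

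**Figure D2:**
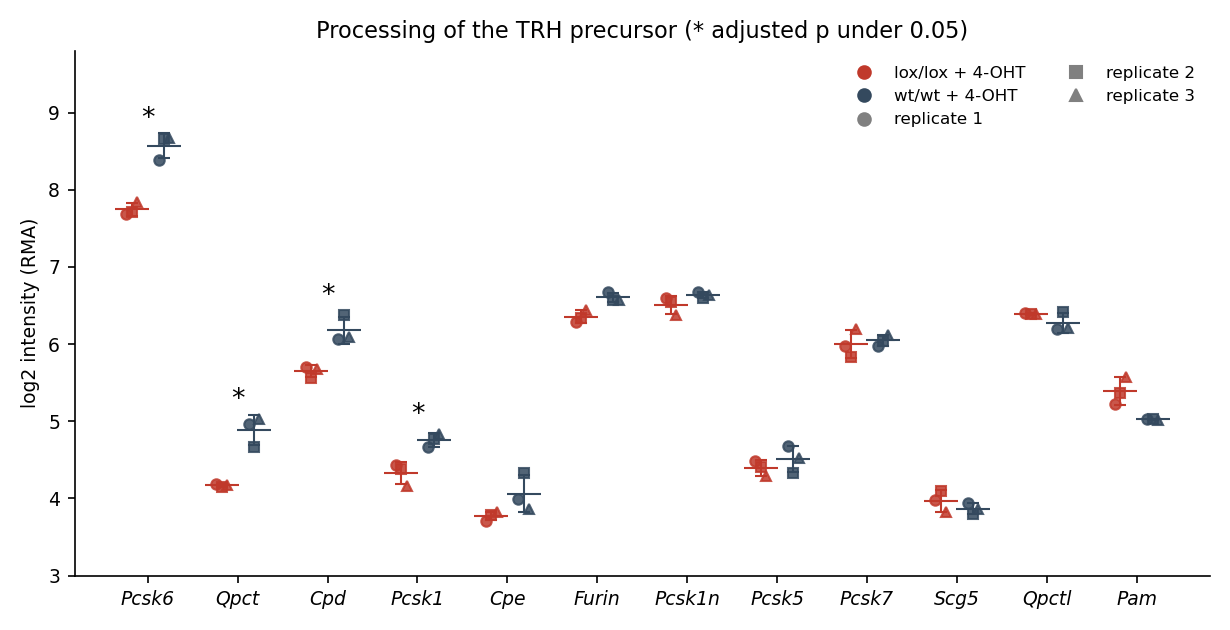
Log2 intensity (RMA) of the 12 measured genes for processing of the TRH precursor on each array, ordered by difference, with lox/lox arrays on the left of each gene and wt/wt arrays on the right, bars giving the mean ± SD of 3 arrays and asterisks an adjusted p under 0.05 in limma. The 4 called genes, Pcsk6, Qpct, Cpd and Pcsk1, were all lower in lox/lox cells, while Pam at the right end lay higher on its lox/lox arrays without passing.

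Secretory granule genes, which serve storage and release of peptide hormones, gave no call. Of 14 measured, 0 passed in limma and 1 had an unadjusted p under 0.05, and 0 also passed with the replicate block or with eBayes set to trend and robust. The median log2 difference was -0.03, and the values ran from -0.23 to 0.34. Below the array median on all 6 arrays lay 9 of the 14, and at such levels a change would be understated or missed. Rab27a, a small GTPase that docks granules, had log2 intensities of 5.46, 5.22 and 5.27 in lox/lox cells, against 5.15, 4.79 and 4.98 in wt/wt cells. These groups were apart by little, and the difference of 0.34 did not pass (adjusted p = 0.103 in limma), except without wt/wt replicate 1 (adjusted p = 0.0432). Scg2, a granin of the granule core, had a log2 difference of -0.23 with overlapping arrays (adjusted p = 0.391).

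The list of peptide breakdown genes, not all of which act on TRH, had 1 lower gene and 0 higher among 13 measured. This was 7.69% called, near the 6.16% of all genes, with a median log2 difference of 0.003. The gene that fell was Rnpep, an aminopeptidase that removes basic residues, with 6.64, 6.90 and 6.80 in lox/lox cells, against 7.27, 7.52 and 7.52 in wt/wt cells (log2 intensity). All lox/lox arrays were lower (log2 difference -0.66, SE 0.10, adjusted p = 0.0036 in limma), and each of the 6 fits without 1 array kept the call. Pgpep1, the cytosolic pyroglutamyl peptidase that can cleave TRH inside cells, had 7.17, 7.30 and 7.31 in lox/lox cells, against 7.07, 6.67 and 7.09 in wt/wt cells. The arrays did not overlap, yet the log2 difference of 0.32 did not pass (adjusted p = 0.161 in limma). Lnpep, of the same aminopeptidase family as Trhde, was not analysed here.

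Of the genes that carry the signal of a TRH receptor, 19 were measured, 1 was higher and 0 lower (5.26% called, near the 6.16% of all genes, median log2 difference 0.09). This was Arrb1, encoding beta-arrestin 1, which binds activated receptors. It had 5.77, 5.70 and 5.92 in lox/lox cells, against 5.41, 5.44 and 5.50 in wt/wt cells (log2 intensity). The groups were apart, with a log2 difference of 0.35 (SE 0.08, adjusted p = 0.0323 in limma), but leaving out any of the 6 arrays ended the call (highest adjusted p = 0.0855). Gna14, a G protein subunit of the Gq family, had a log2 difference of 0.31 and did not pass (adjusted p = 0.107), except without wt/wt replicate 1 (adjusted p = 0.0377), where Gna15, named after its values were seen, also passed (adjusted p = 0.0492).

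The thyroid hormone feedback list holds receptors, their partners, deiodinases and transporters. Of 14 measured, 1 fell and 0 rose (7.14% called, near the 6.16% of all genes, median log2 difference -0.07). Ncoa1, a coactivator of nuclear receptors, had 5.29, 5.38 and 5.34 in lox/lox cells, against 5.68, 5.77 and 5.59 in wt/wt cells (log2 intensity). Its log2 difference of -0.35 (SE 0.08, adjusted p = 0.0305 in limma) passed only with all 6 arrays in the fit, and the highest adjusted p with 1 array left out was 0.107. The receptor genes Thra and Thrb, named after their values were seen, overlapped between genotypes with log2 differences of 0.12 and -0.004 (adjusted p = 0.608 and 0.991). Rxrg, a retinoid X receptor that pairs with them, had a log2 difference of -0.12 (adjusted p = 0.476).

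Factors known to regulate Trh in the hypothalamus gave no call: of 9 measured, 0 passed in limma and 0 had an unadjusted p under 0.05, with 0 also under the replicate block and under trend and robust. The median log2 difference was 0.02, and 3 of the 9 lay below the array median on all 6 arrays. Creb1, the cAMP-responsive activator that can bind Site 4, had 7.24, 7.25 and 7.43 in lox/lox cells, against 7.54, 7.58 and 7.37 in wt/wt cells (log2 intensity), and overlapped (difference -0.19, adjusted p = 0.319). Otp, a homeobox gene of hypothalamic neurons, had a log2 difference of -0.17 (adjusted p = 0.323).

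Other genes for neuropeptide precursors did not share the size of the difference of Trh. Of 39 measured, 0 passed in limma and 5 had an unadjusted p under 0.05, beside 3579 of all 19938 genes. With the replicate block and with trend and robust, 0 of the 39 passed. Their log2 differences ran from -0.32 to 0.20 with a median of -0.01, beside 2.63 for Trh. Of these 39 genes, 20 lay below the array median on all 6 arrays, where a change would be understated or missed. Gal, the galanin precursor, had 3.46, 3.42 and 3.34 in lox/lox cells, against 3.91, 3.54 and 3.74 in wt/wt cells (log2 intensity), all below the array medians. It did not pass (difference -0.32, adjusted p = 0.103), but did without wt/wt replicate 2 (adjusted p = 0.0359) and with median centring (adjusted p = 0.048). Pdyn, the prodynorphin gene, had a log2 difference of -0.26 (adjusted p = 0.15).

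**Figure D3:**
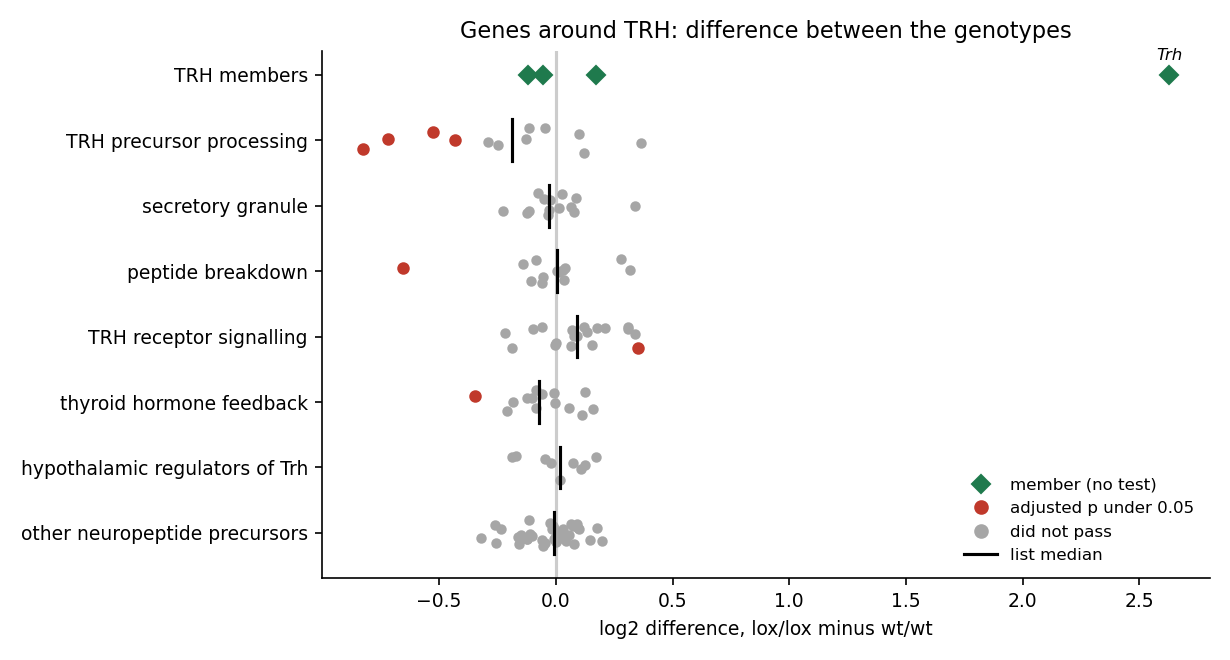
Log2 difference (lox/lox minus wt/wt) of each measured gene in the 7 lists around TRH and of the 4 members, 1 row per list; diamonds are members, red points passed limma at an adjusted p under 0.05, grey points did not, and black bars are list medians. Trh stands at 2.63, far to the right of every other point, and the 4 calls of the processing list lie on the left.

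Tissues that make or answer TRH were checked through their markers. Of 9 neuron markers 0 passed in limma and 3 had an unadjusted p under 0.05, beside 3579 of all 19938 genes. The median log2 difference of these markers was 0.15. Their summed linear intensity was 1630 to 1756 in lox/lox cells, against 1434 to 1544 in wt/wt cells, so that it moved with the genotype in the direction of Trh. Most of that sum was Stmn2, at 10.15 ± 0.10 in lox/lox against 9.88 ± 0.11 in wt/wt cells without overlap (log2 intensity, SD, n = 3 each, adjusted p = 0.12 in limma). With eBayes set to trend and robust, Stmn2 passed (adjusted p = 0.0276 in limma). Stmn2, Tubb3 and Nefl lay above the array median on all 6 arrays. Of the 9 markers, 4 lay below it on all 6 arrays, Snap25 among them, and Rbfox3 lay above it on 1. Map2, a dendritic microtubule protein gene, differed most, at 5.37 ± 0.25 in lox/lox against 4.94 ± 0.12 in wt/wt cells without overlap (log2 difference 0.43, n = 3 each, adjusted p = 0.0755 in limma), and the neurofilament gene Nefl had a log2 difference of -0.16 (adjusted p = 0.5). The part of these neuron markers in the difference of Trh was not tested. Of 6 islet markers 0 passed (0 at an unadjusted p under 0.05), with sums of 117 to 129 in lox/lox against 108 to 131 in wt/wt cells. Pdx1 lay above the array median on all 6 arrays, and the other 5 islet markers lay below it on all 6. Of 5 pituitary markers 0 passed (0 at an unadjusted p under 0.05), with sums of 75.0 to 85.1 in lox/lox against 74.1 to 81.7 in wt/wt cells. The array scale has no 0, and the pituitary hormone genes Tshb and Prl lay below the array median on all 6 arrays.

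The gene nearest to Trh on one side of chromosome 6 was lower while Trh was higher. This gene, Prickle2, which acts in planar cell polarity, had log2 intensities of 5.32, 5.20 and 5.22 in lox/lox cells, against 5.96, 6.26 and 5.92 in wt/wt cells. All lox/lox arrays were lower, by a log2 difference of -0.80 (SE 0.10, adjusted p = 0.00117 in limma), and all 6 fits without 1 array kept the call. Rbsn, an endosomal trafficking gene on the other side, had overlapping arrays and a log2 difference of -0.02 (adjusted p = 0.942). The nearest measured genes of the other members did not pass either: Tmem74 and Nudcd1 beside Trhr (log2 differences -0.07 and -0.17, adjusted p = 0.841 and 0.441), Zfpm1 and Zc3h18 beside Trhr2 (-0.02 and -0.001, adjusted p = 0.97 and 0.998), and Atxn7l3b and Tph2 beside Trhde (-0.07 and -0.08, adjusted p = 0.75 and 0.797).

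The genes whose profile over the 6 arrays was most like that of Trh were found by the Euclidean distance between mean-centred log2 intensities, among 19937 other genes. In order of distance they were Nod1, a cytosolic sensor of bacterial peptidoglycan (0.78), Ubd, a ubiquitin-like modifier (0.82), Usp26, an X-linked ubiquitin protease gene (1.14), Lefty1, an inhibitor of Nodal (1.18), and Liph, a lipase gene (1.31). The median distance of all genes was 3.28, and the length of the mean-centred Trh profile itself was 3.26. A gene flat over the 6 arrays would lie at that length, so a small distance mainly restates a rise of similar size. Pearson's r with Trh ran from 0.963 to 0.983, and since the 6 arrays form 2 genotypes, such values mainly restate the step between them. Nod1 had 7.50, 7.66 and 7.58 in lox/lox cells, against 4.74, 5.04 and 4.97 in wt/wt cells (log2 intensity). Within genotypes the order of the arrays was shared in part. The highest wt/wt array of Trh, replicate 1, was also the highest of 4 of the 5 genes and the lowest of Nod1. The highest lox/lox array of Trh, replicate 1, was also the highest of Ubd alone among the 5, and the lowest of the other 4.

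**Figure D4:**
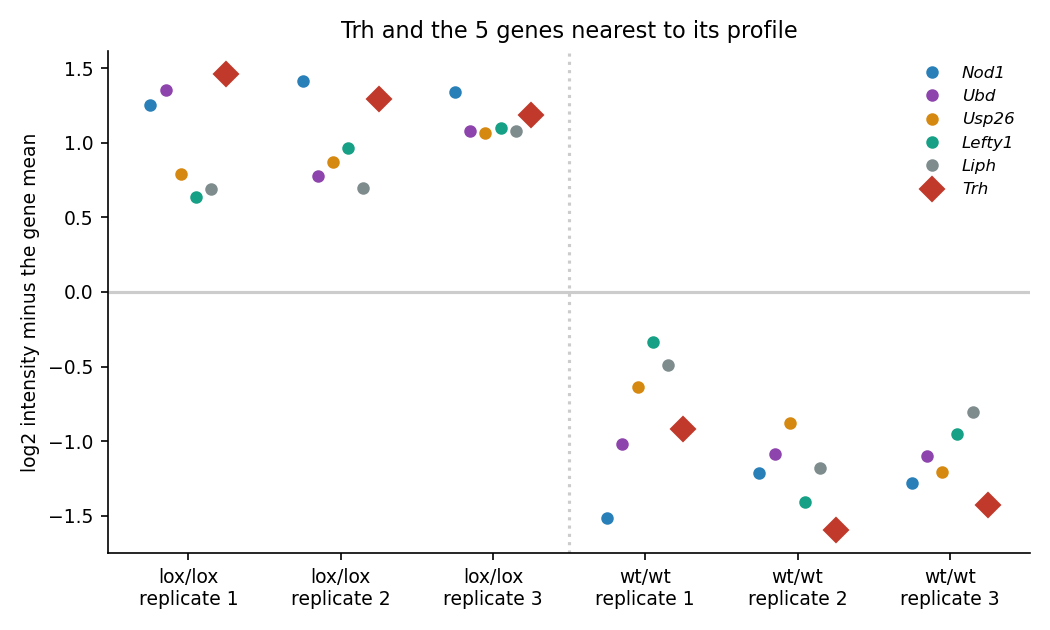
Log2 intensity minus the gene's mean on each of the 6 arrays, lox/lox on the left and wt/wt on the right of the dotted line, for Trh (diamonds) and the 5 genes nearest to its profile (points). All lie above 0 on lox/lox arrays and below 0 on wt/wt arrays, while their order among replicates differs from gene to gene.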

How the data were processed

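The deposited values are log2 intensities of 35556 probe sets on 6 arrays. The submitters' processing notes name RMA and affy; for versions, options and genome build the sources used here give nothing. The platform annotation gave a single symbol to 21789 probe sets and several symbols to 1621, and left 12146 unnamed here. Each gene was represented by its probe set with the highest mean, which left 19938 genes, and no dim genes were removed. Array medians were 4.85 to 4.94, and pairs of arrays correlated at 0.9892 to 0.9947. RMA hides an overall change of RNA per cell. Depth does not apply to arrays, and the 3 arrays per genotype limit the precision.

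The lox/lox arrays were set against the wt/wt arrays by lmFit and eBayes of limma 3.58.1 (R 4.3.3), with p-values adjusted over all genes. The design text calls the replicates biological. On simulated arrays with 200 of 19938 genes changed, 58.2% of log2 changes of 0.5, 95.5% of those of 1 and 100% of those of 2 were recovered. The simulated noise was independent between genes, and fewer genes changed than were called in the data. In the data, the deviations of lox/lox replicate 3 and wt/wt replicate 2 correlated at 0.32, so the recovery on the real arrays may differ. The members and lists were chosen with earlier results of these data known. Up to 4 called genes of smallest p were named per list, or the 2 members of smallest p where fewer than 2 were called, with the nearest measured gene on each side of each member and the 5 genes closest to Trh. Equal replicate numbers did not pair the arrays (correlations of deviations 0.10, -0.23 and -0.10). Gene order came from RefSeq GRCm38.p6.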

Additional observations from a re-analysis of the deposited data

How the results depend on the processing

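The differences of Trh, Trhr, Trhr2 and Trhde moved by less than 1 SD, pooled over the genotypes (0.27, 0.08, 0.18 and 0.11), under quantile normalization, median centring, the replicate block, each array left out and both arrays that stood apart left out. They ran from 2.49 to 2.83, -0.09 to 0.002, 0.07 to 0.25 and -0.19 to -0.08 without 1 array. Genes called numbered 626 to 1132 without 1 array and 697 without both arrays that stood apart. The replicate block, which the numbers do not warrant as a pairing (lox/lox replicates 2 and 3 correlated best with another number), called 1086 genes and left 0 called in the thyroid hormone feedback list (Ncoa1, adjusted p = 0.0542); it changed no other list count. The processing list had 2 calls with dim genes left out, where Qpct and Pcsk1 were among the genes removed, and 2 to 5 without 1 array. The receptor signalling list had 0 calls with median centring, 0 with trend and robust, 0 without both arrays that stood apart and 0 to 2 without 1 array. The thyroid hormone feedback list had 0 calls with trend and robust, 0 without both arrays that stood apart and 0 without any 1 array. The neuropeptide list had 1 call with median centring and 0 to 1 without 1 array, and the granule list 0 to 1. The cause of these shifts was not tested. The peptide breakdown list had 1 call and the hypothalamic list 0 under every alternative run. Signal near background limits what can be said of Trhr, Trhr2 and Trhde.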

Other observations

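Markers of cell types that could accompany ES cells were also measured. Of 7 primitive endoderm markers 0 passed in limma and 0 had an unadjusted p under 0.05, with a median log2 difference of 0.007. Their summed linear intensity was 166 to 183 in lox/lox cells, against 148 to 196 in wt/wt cells. Gata4, an endoderm transcription factor, differed most, at 5.12 ± 0.17 in lox/lox against 4.85 ± 0.30 in wt/wt cells (log2 intensity, SD, n = 3 each). Its arrays overlapped (adjusted p = 0.366 in limma), and 3 of the 7 markers had a difference below 0. Foxa2 lay above the array median on all 6 arrays, and 4 of the 7 lay below it on all 6. Of 8 fibroblast markers 0 passed and 1 had an unadjusted p under 0.05, with sums of 279 to 306 in lox/lox against 256 to 313 in wt/wt cells. Of these 8, Col1a1, Col1a2, Col3a1 and Thy1 lay above the array median on all 6 arrays. Below it on all 6 arrays lay 3, among them Dcn, a proteoglycan gene of fibroblasts. Thy1 had 6.37 ± 0.08 in lox/lox against 6.14 ± 0.24 in wt/wt cells.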
